A study of Arabidopsis thaliana with 9 samples.

Results

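The chloroplast genome genes are the 133 genes, of 37336 in the deposited count tables, whose identifier begins with ATCG, the prefix that marks genes of the Arabidopsis plastid genome. Membership was set by the identifiers alone and by no measured value, although the group was picked with earlier results of these data known. Transcripts of these genes were counted in mRNA-seq libraries of *zmp-1* and *zmp-2*, which are T-DNA insertion lines (SALK_066029 for *zmp-1* and SALK_008955 for *zmp-2*) of the nuclear gene *ZMP* (AT5G63700), and of WT, with 3 replicate libraries each and 9 libraries in all. All plants were of the Col-0 ecotype and grew at 23 °C with 16 h light and 8 h dark. The labels describe 12-day-old seedlings, as does the legend on the *ZMP* transcripts in the paper, whereas its methods name inflorescences. The labels do not say whether replicates came from separate plants or sowings, so the p-values measure the spread between these libraries, which may be partly technical.

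The plastid genome encodes core proteins of the photosystems, the cytochrome b6f complex, the ATP synthase and the NDH complex, the large subunit of Rubisco, ribosomal proteins, subunits of the plastid-encoded RNA polymerase, and ribosomal and transfer RNAs. Its genes are transcribed by a bacterial-type polymerase that works with nuclear-encoded sigma factors and by nuclear-encoded phage-type polymerases, often as long polycistronic units that are then cut and trimmed. Plastid mRNAs generally lack the stable poly(A) tails of nuclear mRNAs, and a tail on a plastid RNA is known to mark it for degradation. The libraries are taken here as made from poly(A) RNA, although the paper's methods name total RNA as the start and state no poly(A) selection. On that reading, the counts describe the plastid RNA that was carried through the selection. The chloroplast genes took from 55.1% (WT replicate 3) to 66.3% (*zmp-2* replicate 2) of all counts, and whether a selection was made was not tested. Fewer plastids and less RNA per plastid cannot be told apart in the counts. Values below are counts per 1000000 chloroplast counts (RPMC), that is the count of a gene over the summed count of the 133 genes in the same library, or the same share in percent.

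The count tables hold identifiers without gene names, and the reference annotation (TAIR10.1) lists the plastid genes under other tags. Notes on nuclear genes in that annotation, together with a sequence search, tied identifiers to plastid genes, of which 6 are named here: ATCG00670 to *clpP*, ATCG00660 to *rpl20*, ATCG01310 to *rpl2*, ATCG00420 to *ndhJ*, ATCG00430 to *ndhK* and ATCG00530 to *cemA*. The other genes are described by identifier, and no sums over complexes were formed. The reference plastid genome has 154478 bp and 131 annotated genes, of which 87 are protein coding, 37 are tRNA genes and 7 are rRNA genes. It carries an inverted repeat of 26264 bp in a pair of copies, from 84171 to 110434 and from 128215 to 154478, with 100% identity between them. A read from inside the repeat has at least a second equally good position, and the deposited counts hold uniquely mapped read pairs alone. *rpl2*, which encodes a protein of the large ribosomal subunit, lies in the repeat. Its first 60 bases from both copies (TAIR10.1, RefSeq, Pltd:85784-85843 on the minus strand and Pltd:152806-152865 on the plus strand) are shown here because they are the same base for base, with the start codon in capitals. All 1507 bases of the gene were identical between the copies.
rpl2 copy 1: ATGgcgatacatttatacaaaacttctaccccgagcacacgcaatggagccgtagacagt
rpl2 copy 2: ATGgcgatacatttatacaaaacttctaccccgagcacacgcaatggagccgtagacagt

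A nuclear copy of plastid sequence is the opposite case, in which the reads can be placed. The pseudogene AT4G13285 on chromosome 4 matches *ndhJ* with 88.166% identity over 169 aligned positions. Of these, 20 differ, 3 of them by a gap. Both stretches (TAIR10.1, RefSeq, chr4:7738696-7738864 on the plus strand and Pltd:48893-49058 on the minus strand) are given to show how a nuclear copy differs from its plastid original, with differing bases and bases opposite a gap in capitals. Over the whole plastid genome, 5.66% of positions had a copy of at least 95% identity and at least 150 bp elsewhere in the genome. For *clpP*, *rpl20*, *ndhJ*, *ndhK* and *cemA* this share was 0%.
AT4G13285: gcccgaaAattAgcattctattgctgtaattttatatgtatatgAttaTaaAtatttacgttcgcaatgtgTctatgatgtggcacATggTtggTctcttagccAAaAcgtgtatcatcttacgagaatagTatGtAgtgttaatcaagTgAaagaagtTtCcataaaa
ndhJ match: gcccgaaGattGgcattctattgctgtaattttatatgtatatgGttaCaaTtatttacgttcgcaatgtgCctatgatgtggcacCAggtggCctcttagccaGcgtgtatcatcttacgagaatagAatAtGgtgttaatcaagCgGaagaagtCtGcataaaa

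Library totals were between 5815211 and 25182435 counts, and the summed chloroplast count was between 3749587 and 16482042. The floor was set at 3 counts, which is 0.182 RPMC in the deepest library and 0.8 RPMC in the shallowest. Floors and intervals cover counting error only. *ZMP* itself had 2.03 to 2.92 RPM (counts per 1000000 of the library total) in *zmp-1* and 0.903 to 1.51 in *zmp-2*, against 5.4 to 8.36 in WT, without overlap between the mutant and WT libraries (exact two-sided permutation p = 0.1 for either mutant, the smallest that 3 against 3 can give). The 6 markers of green leaves summed to between 3692 and 4118 RPM in *zmp-1*, 3462 and 5592 in *zmp-2* and 3174 and 5049 in WT, whereas the 6 flower markers, 1 of which was at 0 in every library, did not exceed 3.22 RPM in any library. The 4 root markers summed to 454 to 669 RPM in *zmp-1* and 444 to 587 in *zmp-2*, against 299.6 to 439 in WT. Their part in the results on the chloroplast genes was not tested. The 2 seed markers were between 0.208 and 12.3 RPM over the 9 libraries.

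The chloroplast counts were dominated by a single gene. ATCG00020 took 55.9%, 58.2% and 52.8% of the chloroplast counts in the *zmp-1* libraries and 54.2%, 59.3% and 54.5% in the *zmp-2* libraries, against 60.9%, 54.6% and 59.3% in the WT libraries. The genotypes overlapped throughout. ATCG00490 came next with 12.5% ± 1.94 in *zmp-1* and 12.3% ± 1.44 in *zmp-2*, against 12.3% ± 1.33 in WT (SD, n = 3 each). After it stood ATCG00340 with 4.09% ± 0.656 in *zmp-1*, 4.34% ± 0.807 in *zmp-2* and 4.23% ± 0.809 in WT, and ATCG00350 with 3.3% ± 0.373 in *zmp-1*, 3.51% ± 0.697 in *zmp-2* and 3.43% ± 0.457 in WT. ATCG00340 was above ATCG00350 in each of the 9 libraries, although their ranges over libraries overlapped in every genotype. The 10 most abundant genes, which also include ATCG00280, ATCG00680, ATCG00580, ATCG00120, ATCG00270 and ATCG00720, together took 85.9% ± 1.4 of the chloroplast counts in *zmp-1* and 86.6% ± 0.596 in *zmp-2*, against 87.6% ± 2.53 in WT. These shares are not scaled by gene length, so they rank the genes by the reads they took and not by their number of transcripts.

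**Figure D1:**
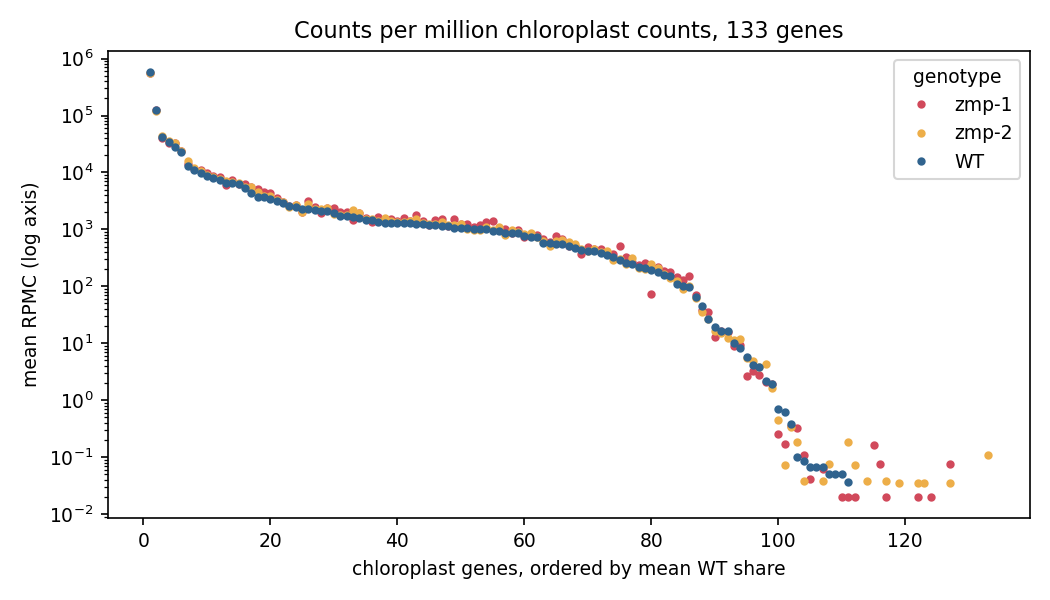
Mean RPMC (log axis) of the 133 chloroplast genes, ordered by their mean share in WT, with a point for each genotype. Genes with a mean of 0 in a genotype have no point there, and the levels drop steeply after about the 86 most abundant genes.

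**Figure D2:**
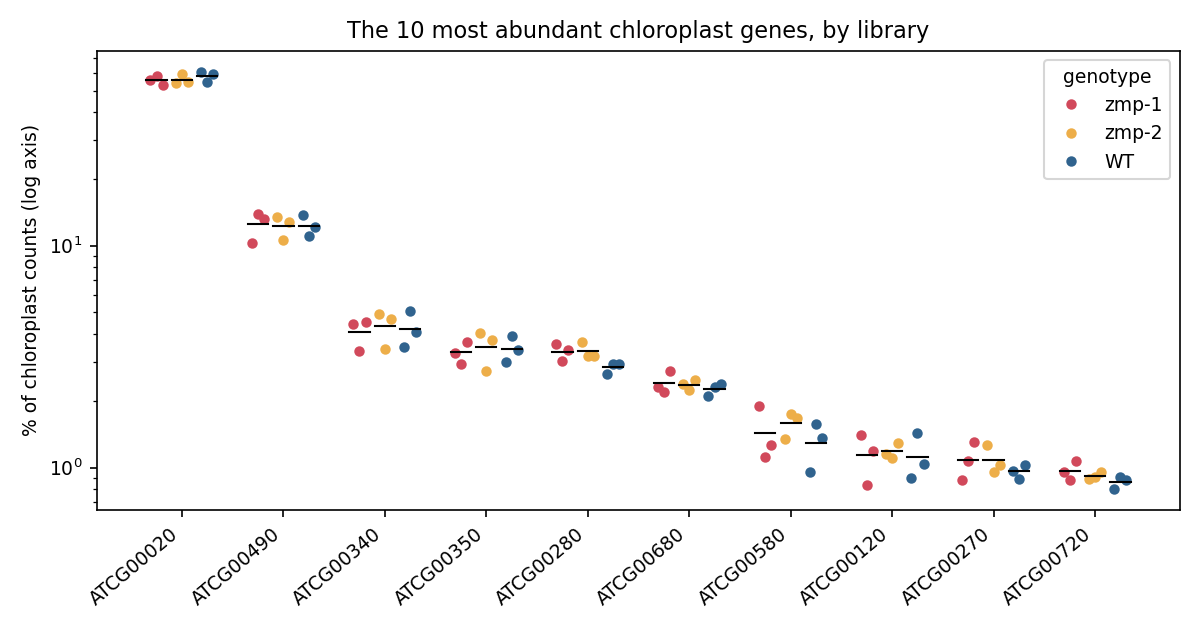
Share of chloroplast counts in percent (log axis) of the 10 most abundant chloroplast genes, with a point for each library and a line at the mean of 3 libraries. The first gene lies between 52.8% and 60.9% in all 9 libraries, and mutant and WT points overlap for every gene but ATCG00280.

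ATCG00280 was the exception among the 10, with 3.61%, 3.01% and 3.37% in *zmp-1* and 3.67%, 3.19% and 3.18% in *zmp-2*, against 2.65%, 2.92% and 2.93% in WT. All mutant libraries were above all WT libraries. This separation depended on the denominator: with ATCG00020 left out of the chloroplast total, both mutants overlapped WT for this gene. The log2 fold change of its share was 0.23 in *zmp-1* (standard error 0.15) and 0.24 in *zmp-2* (standard error 0.15), with adjusted p-values of 0.514 and 0.533 from edgeR's quasi-likelihood test, so that the difference did not pass the test in either mutant.

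Of the 133 genes, 8 held over 1% of the chloroplast counts in the WT mean, 46 held from 0.1% to 1%, and 79 held under 0.1%. Of these 79, 45 passed the filter on low counts. In all, 99 of the 133 genes passed and 34 did not, and there was a wide gap between them, since the highest total over the 9 libraries was 28 counts among those that did not pass and the lowest was 114 counts among those that did. The 34 genes summed to 128 counts of 72502438 chloroplast counts, and 11 of them were at 0 in all libraries. All 34 carried identifiers in a pair of number runs, 17 of the 19 identifiers from ATCG00830 to ATCG01000 and 17 of the 18 from ATCG01140 to ATCG01310. The other members of those runs that passed were ATCG00920, ATCG00950 and ATCG01180. Outside the runs, 0 of 96 genes failed to pass. For comparison, 37 plastid genes of the reference touch the inverted repeat, although which of the identifiers lie there was settled here for *rpl2* alone. *rpl2* (ATCG01310) had 0 counts in each of the *zmp-1* and WT libraries and 1 count in each of the *zmp-2* libraries, below the floor in every library, so no fold change is given for it. A read pair from inside either copy has no unique position, so these counts are no measure of its RNA level.

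The 5 named genes that passed the filter could be compared per length. *clpP*, which encodes the catalytic subunit of the plastid Clp protease, lies at Pltd:69910-71882 on the minus strand with 591 exonic bp. It had the highest level per length of the 5, with 4672, 5099.7 and 5411 RPMC per kb in *zmp-1* and 4698, 5228 and 5306 in *zmp-2*, against 4173, 5669 and 4696 in WT. The WT libraries spanned the range of both mutants. Its log2 fold change in share was 0.06 in *zmp-1* (95% interval −0.32 to 0.45) and 0.07 in *zmp-2* (−0.32 to 0.45).

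*ndhK* and *ndhJ* encode subunits of the NDH complex, which takes part in cyclic electron flow around photosystem I. They lie next to each other on the minus strand, *ndhK* at Pltd:49257-49934 and *ndhJ* at Pltd:48677-49153, with 103 bp between them. *ndhK* had 3989, 2953 and 3376 RPMC per kb in *zmp-1* and 3240.04, 3658 and 3479 in *zmp-2*, against 2619, 3884 and 2739 in WT. *ndhJ* had 4539, 2609 and 2426 RPMC per kb in *zmp-1* and 2392, 2947 and 2982 in *zmp-2*, against 1881, 3215 and 2157 in WT. The libraries of the genotypes overlapped for both genes, and *zmp-1* replicate 1 had the highest level of both. The level of *ndhJ* over that of *ndhK*, per kb, was 1.14 in that library and between 0.718 and 0.884 in the other 8. It averaged 0.913 ± 0.211 in *zmp-1* and 0.8 ± 0.0596 in *zmp-2*, against 0.778 ± 0.0554 in WT (SD, n = 3 each).

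*cemA* encodes a protein of the chloroplast envelope membrane and lies at Pltd:60741-61430 on the plus strand. It had 3451 ± 476 RPMC per kb in *zmp-1* and 2731 ± 159.9 in *zmp-2*, against 2783 ± 1098 in WT (SD, n = 3 each). The spread in WT came with a high replicate 2, at 4050.4 RPMC per kb, beside 2186 and 2111 in the other libraries. The ribosomal protein gene stood lowest of the 5. *rpl20*, at Pltd:68512-68865 on the minus strand, encodes a protein of the large subunit and had 1891 ± 228 RPMC per kb in *zmp-1* and 1734 ± 149.98 in *zmp-2*, against 1619 ± 418 in WT. None of the 5 genes passed the test in either mutant on either scale.

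**Figure D3:**
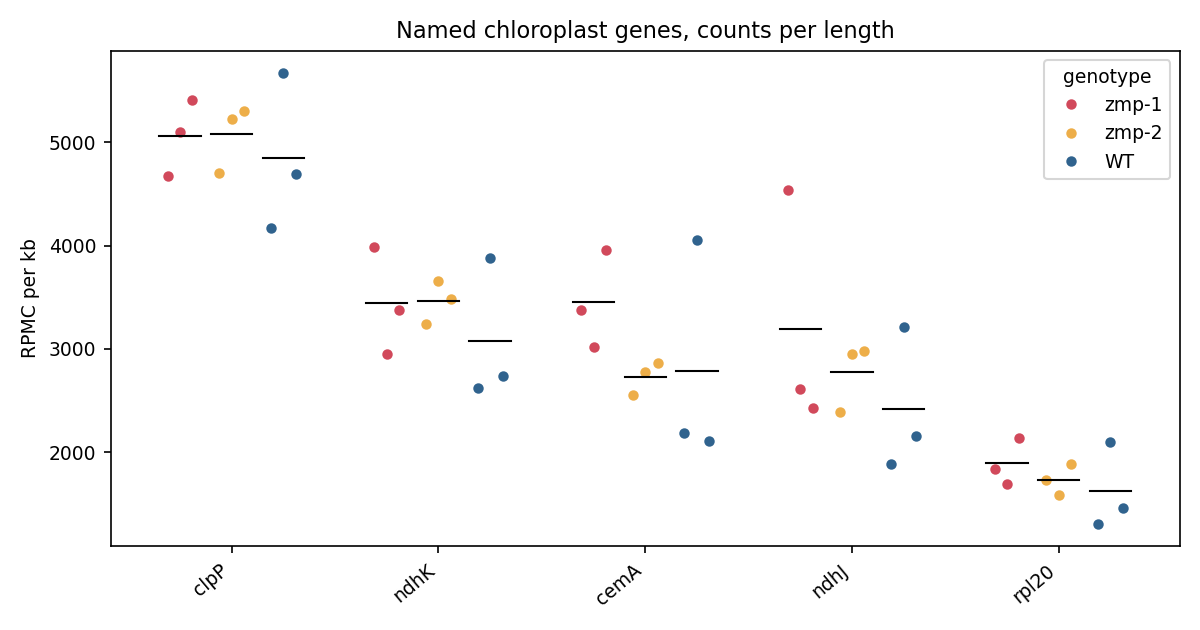
Level per length (RPMC per kb of exonic sequence) of 5 named chloroplast genes, with a point for each library and a line at the mean of 3 libraries. *clpP* has the highest mean in all genotypes and *rpl20* the lowest, and each mutant overlaps WT for each gene.

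The share of each gene in the chloroplast counts was then compared between genotypes, which sets aside differences in the amount of chloroplast RNA per library. edgeR's quasi-likelihood test was fitted to all 18109 genes that passed the filter, with the chloroplast total as library size, and p-values were adjusted over all of them by the Benjamini-Hochberg method. None of the 99 chloroplast genes reached an adjusted p-value of 0.05 in *zmp-1*, in *zmp-2* or between the mutants. DESeq2 with size factors from the same totals also called 0, where it called 0.581% of all genes in *zmp-1*, 0.864% in *zmp-2* and 0.0775% in *zmp-2* against *zmp-1*. With edgeR, 0.0387% of all genes tested were called in *zmp-1*, 0.11% in *zmp-2* and 0.0221% in *zmp-2* against *zmp-1*. Unadjusted p-values under 0.05 were found for 5 chloroplast genes in *zmp-1*, against a background of 11.9% of all genes, for 1 in *zmp-2*, against 11.5%, and for 4 in *zmp-2* against *zmp-1*, against 3.42%. The smallest adjusted p-value was 0.392 for *zmp-1* and 0.414 for *zmp-2*.

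The median log2 fold change in share was 0.16 over the 99 genes in *zmp-1*, beside −0.23 over all genes tested, and 0.07 in *zmp-2*, beside −0.18. A total of 75 genes had a positive value in *zmp-1* and 76 in *zmp-2*. Both comparisons use the same WT libraries. These medians moved with single libraries: without WT replicate 2 they were 0.35 in *zmp-1* and 0.29 in *zmp-2*, without WT replicate 1 they were 0.08 and −0.01, and without *zmp-1* replicate 3 that of *zmp-1* was 0.08. They also moved with the denominator. With ATCG00020 left out of it they were 0.08 in *zmp-1* and 0.02 in *zmp-2*, and with TMM factors from the chloroplast genes alone they were 0.03 and 0.00. The adjusted test needs a larger change than an unadjusted one to call a gene. The 95% intervals are per gene and unadjusted, and give only the precision of each fold change. Their median half-width was 0.50 on the log2 scale, and the interval lay wholly within a 2-fold change in either direction for 80 of the 99 genes in *zmp-1* and for 86 in *zmp-2*. Groups that did not overlap were found for 4 genes in *zmp-1*, or 4.04% of the 99, against 16% of all genes tested, and for 3 in *zmp-2*, or 3.03%, against 14.5%. The 4 in *zmp-1* were ATCG00280, ATCG00590, ATCG00600 and ATCG01040, and the 3 in *zmp-2* were ATCG00280, ATCG00320 and ATCG01030, with the mutant above WT in every case. Most of these separations depended on the denominator. With ATCG00020 left out of it, ATCG00280, ATCG00590 and ATCG01040 overlapped in *zmp-1*, and ATCG00280 and ATCG00320 overlapped in *zmp-2*. Only ATCG00600 in *zmp-1* and ATCG01030 in *zmp-2* stayed apart. The backgrounds of 16% and 14.5% are mostly of nuclear genes divided by the chloroplast total. They include the common shift of all genes on this scale (medians −0.23 and −0.18) and are not a like-for-like rate. The same holds for the percentages of all genes given above for the share fit.

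**Figure D4:**
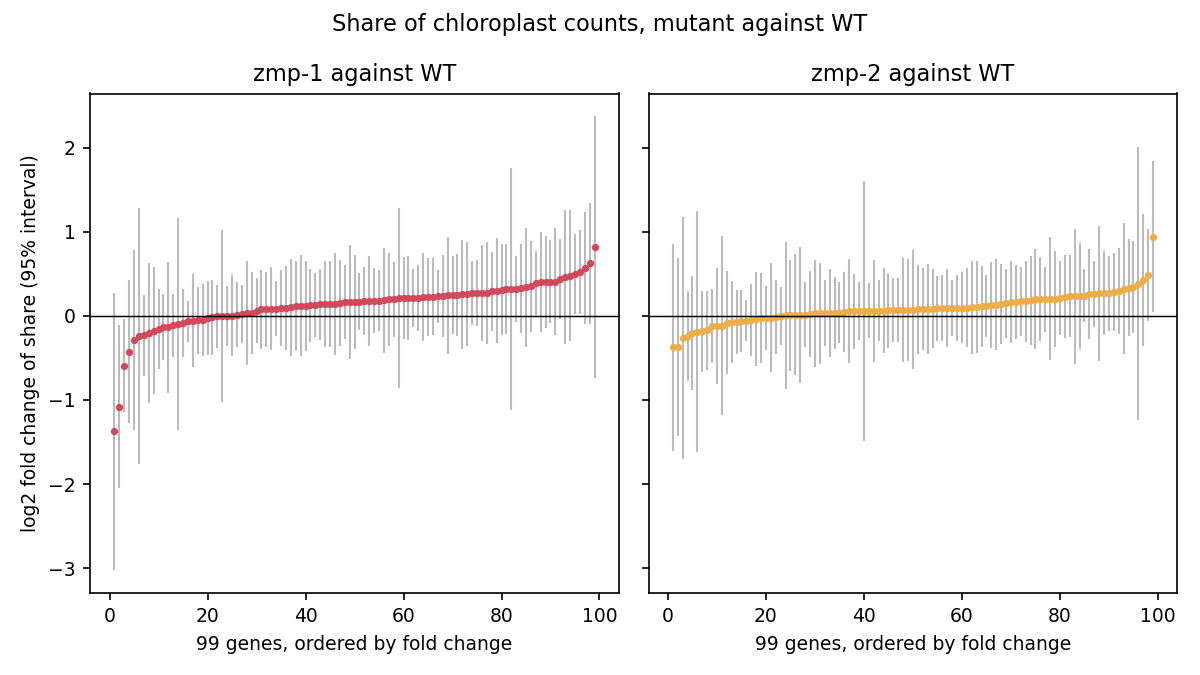
Log2 fold change in share of chloroplast counts for the 99 genes that passed the filter, *zmp-1* against WT on the left and *zmp-2* against WT on the right, each ordered by its own values, with 95% intervals as grey lines. The values run from −1.37 to 0.82 in *zmp-1* and from −0.37 to 0.94 in *zmp-2*, and none passed the adjusted test.

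The most negative share changes in *zmp-1* belonged to ATCG00570, ATCG00010, ATCG00460 and ATCG00060. ATCG00010 had 2.24, 3.2 and 2.69 RPMC in *zmp-1* and 8.89, 3.36 and 4.55 in *zmp-2*, against 6.15, 3.1 and 7.79 in WT, and rests on 319 counts in all. The lowest WT library lay inside the *zmp-1* range, and the log2 fold change was −1.08 (standard error 0.45, adjusted p = 0.392). ATCG00460 had 12.1, 8.27 and 17.7 RPMC in *zmp-1* and 15.9, 16.6 and 16.3 in *zmp-2*, against 16.2, 20.03 and 21.3 in WT, and its log2 fold change in *zmp-1* was −0.59 (standard error 0.25, adjusted p = 0.402). The groups overlapped for this gene too. For ATCG00060, with 244 counts in all, the log2 fold change was −0.43 (standard error 0.39). It was −0.08 without WT replicate 1 and −0.70 without WT replicate 2.

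The most positive in *zmp-1* were ATCG00290, ATCG00110, ATCG00220 and ATCG00300, with log2 fold changes of 0.82, 0.62, 0.57 and 0.52. ATCG00110 had 66.4, 181 and 210.2 RPMC in *zmp-1* and 105, 105 and 89.01 in *zmp-2*, against 110.2, 91.6 and 94.5 in WT. *zmp-1* replicate 1 was the lowest of the 9 libraries and the other *zmp-1* libraries were the highest. ATCG00220 had 1019, 1418 and 1812 RPMC in *zmp-1* and 637, 1354 and 893 in *zmp-2*, against 803, 1260 and 803 in WT. ATCG00300 had 1376, 1708 and 2371 RPMC in *zmp-1* and 1413, 1810 and 1356 in *zmp-2*, against 1190, 1486 and 1126 in WT. The *zmp-1* libraries overlapped those of WT for each of these genes, and the adjusted p-values from edgeR's quasi-likelihood test of ATCG00110, ATCG00220 and ATCG00300 were 0.46, 0.462 and 0.406. Without *zmp-1* replicate 3 the log2 fold changes of these genes were 0.32, 0.35 and 0.28.

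In *zmp-2* the largest share changes were found mostly among genes with few counts. ATCG01030 had 3.71, 4.72 and 4.32 RPMC in *zmp-2* and 2.97, 1.6 and 1.57 in *zmp-1*, against 1.05, 3.21 and 2.26 in WT, from 225 counts in all. The *zmp-2* libraries were above the WT libraries, and the log2 fold change was 0.94 (standard error 0.42, adjusted p = 0.414). ATCG00320 had 12.04, 11.7 and 11.3 RPMC in *zmp-2* and 11.95, 6.93 and 9.18 in *zmp-1*, against 10.5, 6.97 and 7.58 in WT. Its log2 fold change in *zmp-2* was 0.48 (standard error 0.25). ATCG00700, with 139846 counts in all, had 2383, 2107 and 2040 RPMC in *zmp-2* and 2510, 1119 and 795 in *zmp-1*, against 1347, 1299 and 2211 in WT. The log2 fold change was 0.43 for *zmp-2* (standard error 0.36). Also among the most positive was ATCG00570, with 13986 counts in all. Its log2 fold change for *zmp-2* was between 0.20 and 0.55 over the fits without 1 library. The most negative were ATCG01180 and ATCG00950, both at −0.37, then ATCG00920 at −0.26 and ATCG00460 at −0.24, with standard errors of 0.57, 0.49, 0.66 and 0.25. Without WT replicate 1 the log2 fold changes of ATCG01180 and ATCG00950 were −0.04 and −0.01, and without *zmp-2* replicate 1 they were −0.76 and −0.86. The sign of ATCG00920, which has 114 counts in all, turned without WT replicate 1 and without *zmp-2* replicate 2.

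ATCG00570 had the widest range of the 99 genes, 25.4-fold from the lowest to the highest library. It had 3151, 55 and 55 counts in *zmp-1* and 2139, 2978 and 1770.0 counts in *zmp-2*, against 1158, 1537 and 1143 counts in WT. As a share this was 191, 14.7 and 12.3 RPMC in *zmp-1* and 241, 312 and 201 RPMC in *zmp-2*, against 174, 170.1 and 234 RPMC in WT. *zmp-1* replicates 2 and 3 were thus far below all other libraries, with exact 95% binomial intervals of 11.1 to 19.1 RPMC and 9.28 to 16.03 RPMC, while *zmp-1* replicate 1 lay among the WT libraries, with an interval of 185 to 198 RPMC. The identifiers next in number showed no such drop. ATCG00560 had 1138, 1556 and 1855 RPMC in *zmp-1*, and ATCG00580 took 1.89%, 1.11% and 1.26% of the chloroplast counts in these libraries. The log2 fold change in share of ATCG00570 in *zmp-1* was −1.37 (standard error 0.76, adjusted p = 0.472), and *zmp-2* against *zmp-1* gave 1.76 (standard error 0.77, unadjusted p = 0.04). Without *zmp-1* replicate 1 these became −3.84 and 4.22, with adjusted p-values of 0.00144 and 0.000896 from edgeR's quasi-likelihood test, and on the level scale −3.64 and 4.23. So 1 library decided whether this gene was called. *zmp-1* replicate 1 was also the deepest library of the series, with 25182435 counts. The shallowest were *zmp-1* replicates 2 and 3, with 5815211 and 7149691 counts. Why *zmp-1* replicate 1 differed from the other *zmp-1* libraries was not tested.

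Other genes with a wide range varied within genotypes as well. ATCG00290 had 127, 228 and 1174 RPMC in *zmp-1* and 243, 378 and 283 in *zmp-2*, against 82.7, 504 and 281 in WT. The highest *zmp-1* library and the lowest WT library were 14.2-fold apart, and without *zmp-1* replicate 3 the log2 fold change in *zmp-1* became −0.71, against 0.82 with all libraries. ATCG00090 had 26.5, 74.7 and 280.3 RPMC in *zmp-1* and 91.1, 96.6 and 78.7 in *zmp-2*, against 35.1, 138 and 131 in WT. For both genes the *zmp-2* libraries kept closest together. ATCG00600 spanned 1.51-fold over the 9 libraries, with 317, 346 and 329 RPMC in *zmp-1* and 239, 229.8 and 275 in *zmp-2*, against 241, 262 and 255 in WT. Its *zmp-1* libraries lay above those of *zmp-2* and WT.

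**Figure D5:**
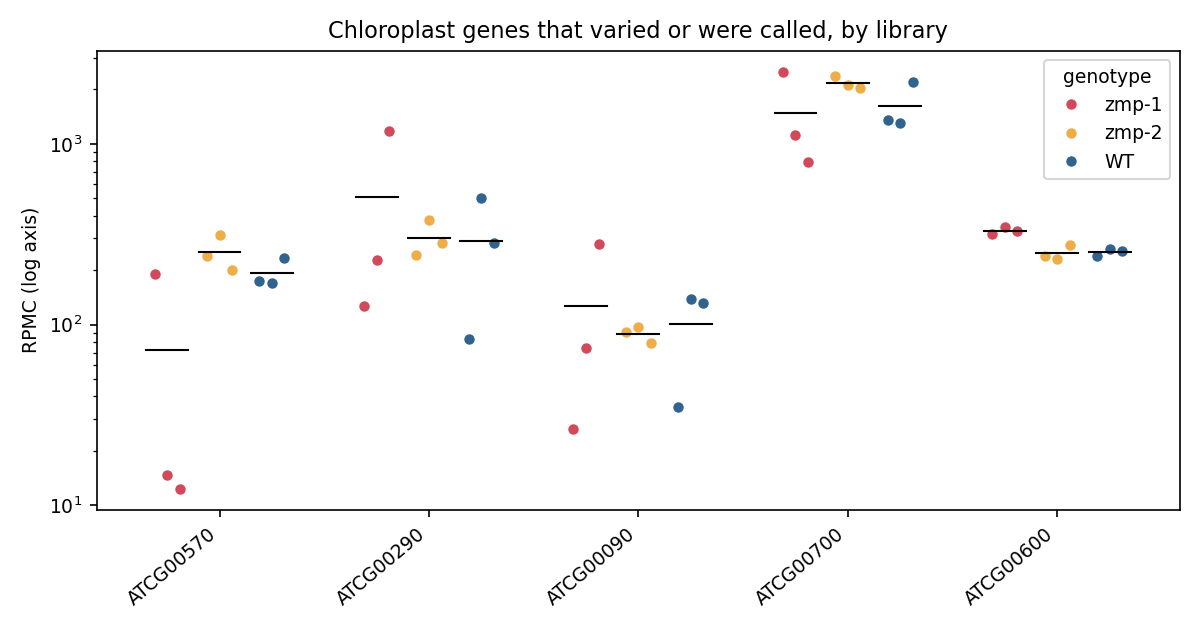
RPMC (log axis) of 5 chloroplast genes named in the text, with a point for each library and a line at the mean of 3 libraries. In ATCG00570 *zmp-1* has 2 libraries under 15 RPMC and 1 at 191 RPMC, while the *zmp-1* libraries of ATCG00600 lie at 317 to 346 RPMC, above those of *zmp-2* and WT.

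The level of the chloroplast genes relative to all genes was compared in a second fit, with TMM-scaled library sizes. Again none of the 99 genes was called, in either mutant or between the mutants, where 0.0442% of all genes were called in *zmp-1*, 0.177% in *zmp-2* and 0.0221% in *zmp-2* against *zmp-1*. Unadjusted p-values under 0.05 were found for 10 genes in *zmp-1*, with a background of 9.16% of all genes, for 3 in *zmp-2*, with a background of 12.1%, and for 2 in *zmp-2* against *zmp-1*, with a background of 4.36%. In both mutants the genes with such a p-value were above WT. DESeq2 with its own size factors called 1 of the 99 in *zmp-1*, ATCG00600, with a log2 fold change of 0.59 and an adjusted p of 0.0177. It called 0.609% of all genes in that comparison. In *zmp-2* it called 0 chloroplast genes, where it called 1.21% of all genes, and in *zmp-2* against *zmp-1* it called 0, where it called 0.0885% of all genes. In the edgeR fit this gene had 0.60 (standard error 0.16) and an adjusted p of 0.324, and its adjusted p ranged from 0.0177 to 0.759 over the alternatives.

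On this scale 92 of the 99 genes had a positive log2 fold change in *zmp-1*, and 92 did so in *zmp-2*. The median was 0.37 in *zmp-1*, beside −0.01 over all genes tested, and 0.24 in *zmp-2*, beside −0.02. The chloroplast genes took 64.1% ± 1.52 of all counts in *zmp-1* and 62.8% ± 2.99 in *zmp-2*, against 59.7% ± 4 in WT (SD, n = 3 each), where WT replicate 3 had 55.1% and the other WT libraries had 62.04% and 62.1%. Without WT replicate 3 the difference in this share fell to 2.08 percentage points in *zmp-1*, against 4.39 with all libraries, and to 0.767 in *zmp-2*, against 3.08. Without *zmp-2* replicate 2 it was 1.35 in *zmp-2*. The medians of the level moved likewise, to 0.23 in *zmp-1* and 0.10 in *zmp-2* without WT replicate 3, to 0.58 and 0.50 without WT replicate 2, and to 0.13 in *zmp-2* without *zmp-2* replicate 2. The 99 values share the same libraries and are not independent of each other.

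Libraries of the same genotype differed from each other in the shares of single genes. For the 99 genes, the highest library was over the lowest by a median of 1.4-fold among the *zmp-1* libraries and 1.23-fold among the *zmp-2* libraries, against 1.6-fold among the WT libraries. A range above 2-fold was found for 14 genes in *zmp-1*, 4 in *zmp-2* and 20 in WT. Over all 9 libraries the median was 1.8-fold and 35 genes ranged above 2-fold. A range over 9 libraries cannot be narrower than one over 3 of them, so these values do not compare the genotypes. The log2 shares of the 99 genes correlated between libraries of the same genotype with a median Pearson r of 0.991, from 0.968 to 0.996 over 9 pairs, and between libraries of different genotypes with a median of 0.986, from 0.972 to 0.997 over 27 pairs. These correlations are across genes, which are not independent replicates, and are given as a description. The shares span a wide range over the 99 genes, so r is high for any pair and says little about genotype. WT replicate 1 had the lowest share of the 9 libraries for 44 of the 99 genes, and *zmp-1* replicate 3 had the highest for 29. In these libraries ATCG00020 took its largest share (60.9%) and its smallest (52.8%). With ATCG00020 left out of the total, WT replicate 1 was lowest for 22 of the other 98 genes and *zmp-1* replicate 3 highest for 18. ATCG00020 itself had the narrowest range of share, 1.15-fold over all 9 libraries. It makes up 52.8% to 60.9% of its own denominator, which narrows this range. The value therefore cannot be set against the ranges of genes with small shares.

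Nuclear genes for the making and turnover of plastid RNA were followed for comparison. The list holds 26 genes: the sigma factors, which direct the plastid-encoded polymerase to promoters, the phage-type polymerases RPOTp and RPOTmp, the polymerase-associated proteins PAP1 to PAP12, and ribonucleases and RNA-binding proteins such as PNP1 and CSP41B. All 26 passed the filter, and 0 were called up or down in *zmp-1*, in *zmp-2* or between the mutants by edgeR's quasi-likelihood test. Their median log2 fold change in level was 0.10 in *zmp-1*, beside −0.01 over all genes tested, with 19 values above zero and 7 below. In *zmp-2* it was 0.31, beside −0.02, with 24 above zero and 2 below. Unadjusted p-values under 0.05 numbered 0 in *zmp-1*, with a background of 9.16% of all genes, 5 in *zmp-2*, with a background of 12.1%, and 1 in *zmp-2* against *zmp-1*, with a background of 4.36%. The 5 were PAP1, PAP2, PAP5, PAP12 and CSP41B. PAP2 (AT1G74850), a component of the transcriptionally active plastid chromosome, had a log2 value of 0.52 for *zmp-2* over WT (standard error 0.17, adjusted p = 0.261), and CSP41B (AT1G09340), an RNA-binding protein of the chloroplast, had 0.42 (standard error 0.18, adjusted p = 0.397).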

How the data were processed

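The authors made mRNA-seq libraries from total RNA with the NEBNext Ultra RNA kit, used Trim Galore for trimming and STAR 2.5.3a for alignment to TAIR10 (Araport11 genes). The deposited values are raw counts per gene, in which STAR tallies uniquely placed read pairs; no scaling was applied. Which strand was counted is not given in the sources used here, and 6 neighbouring pairs of plastid genes overlap in the reference, so counts of overlapping genes are uncertain. Chloroplast genes and gene lists were chosen with earlier results of these data known.

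Groups follow the genotype in the labels. Counts were fitted in R 4.3.3 with edgeR 4.0.16 (quasi-likelihood, 1 coefficient per genotype, all 9 libraries, filterByExpr), first with TMM library sizes (level) and then with the summed chloroplast count as library size (share). Tests were two-sided, with Benjamini-Hochberg adjustment over 18109 genes and a threshold of 0.05. DESeq2 1.42.0 and the other settings of the closing section were alternatives. The fits were tested on simulated data, drawn with the same dispersion for every gene and without outlying libraries. That test checks the fitting steps and does not measure the power for the chloroplast genes. Identical counts were found in 0 of 36 library pairs. The genes named are those called in either fit, the 10 with the highest mean WT share, and the 4 highest and 4 lowest share changes of each mutant. ATCG00090, ATCG00590, ATCG00600 and ATCG01040, and ATCG00560 and ATCG00580 as neighbours in number, were added after their values were seen. Plastid genes were searched with BLAST+ 2.17.0, and 7 of the 133 identifiers were tied to a name in this way, 1 of which is not reported here. Sums over photosystems and other complexes were therefore not formed.

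The replicate numbers come from the labels. Deviations of libraries with the same number correlated with r of 0.295, 0.255 and 0.149 between *zmp-2* and WT, with r of 0.041, −0.018 and 0.052 between *zmp-1* and WT, and with r of 0.133, −0.114 and −0.102 between *zmp-2* and *zmp-1*. The values were highest between *zmp-2* and WT. Correlations between libraries with different numbers were not computed, so this check does not settle whether the numbers pair libraries in any comparison. The values given are from the fits without a block, and the closing section gives the counts with it.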

Additional observations from a re-analysis of the deposited data

How the results depend on the processing

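The count of chloroplast genes called stayed at 0 under every alternative for *zmp-2* against WT, on both scales. It became 1 for *zmp-1* against WT on the level scale with DESeq2 (ATCG00600). Over the fits without 1 library it ranged from 0 to 1 for *zmp-1* against WT and for *zmp-2* against *zmp-1*, on both scales, where the 1 was ATCG00570 without *zmp-1* replicate 1. With the replicate number as a block (replicate block) 0 genes were called in all 3 comparisons on both scales, so it changed no call. Unadjusted p-values under 0.05 in *zmp-2* against WT numbered 3 by level and 2 by share with the block, against 3 and 1 without it, and in *zmp-1* by level 18, against 10. Scaling by the upper quartile, by raw library size or from nuclear genes, TMM factors from chloroplast genes, a denominator without ATCG00020, no filter, at least 10 counts in every library, the 6 libraries compared and an adjusted p of at most 0.01 also gave 0. Among single genes, ATCG00290 in *zmp-1* turned to −0.71 without *zmp-1* replicate 3 (range −0.71 to 1.49 over the fits without 1 library), and ATCG00920 in *zmp-2* turned to 0.18 without WT replicate 1 and to 0.13 without *zmp-2* replicate 2 (range −0.97 to 0.18). Chosen after seeing the data, a total without nuclear rRNA genes gave differences in the chloroplast share of 4.27 percentage points in *zmp-1* and 2.81 in *zmp-2*, and the median changes in share depended on the denominator as described above. The denominator of protein-coding chloroplast genes, the total without organelle rRNA and the class shares were not run, since the identifiers were not sorted into classes. The intervals of genes with few counts limit what could be seen, and the 34 genes with at most 28 counts allow no comparison.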
